A study of Homo sapiens with 3 samples.

Results

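The ONECUT3-positive cells described here are 188 of 6626 single cells kept from human stem-cell-derived islets. A kept cell had at least 1000 detected genes and at most 20% of its UMIs (unique molecular identifiers, each 1 counted RNA molecule) in mitochondrial genes, and 6626 of 9889 barcodes passed. A kept cell was taken as ONECUT3-positive when it held at least 2 ONECUT3 UMIs, fewer than 2 TPH1 UMIs and fewer than 300 INS UMIs per 10000. The limits leave out cells rich in TPH1, which encodes the serotonin-synthesis enzyme tryptophan hydroxylase, and cells rich in INS, the insulin gene. ONECUT3, TPH1 and INS therefore chose the cells, and their levels are given as a description with no test. The cells of reference, called ONECUT3-zero cells, passed the same limits with 0 ONECUT3 UMIs and numbered 2172, while 74 more cells held exactly 1 UMI and entered neither class.

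The islets came from HUES8 cells, an established line of human embryonic origin, and carried no genetic change that the labels name. Their cells were labelled with an antibody to CD49a, the integrin alpha chain encoded by ITGA1, and separated magnetically into a CD49a-positive and a CD49a-negative fraction, with unsorted cells as the third group. Re-aggregated clusters were cultured for 7 days, dispersed with TrypLE and loaded on a 10X Chromium instrument. Each group is 1 library from the same line, and the treatment text attached to the unsorted sample also speaks of sorting. The labels do not say that the libraries came from separate differentiations. Every p-value below therefore sets a difference between classes against how that difference varied over these 3 libraries only. The libraries are also 3 different groups of the sort, and the variation may be technical.

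ONECUT3 belongs to the ONECUT family of transcription factors, which bind DNA through a cut domain and a homeodomain. Its relative ONECUT1, also called HNF6, acts in liver and pancreas and lies upstream of the endocrine progenitor factor NEUROG3. Endocrine cells of the islet are distinguished by the hormone they make most of, glucagon in alpha cells, insulin in beta cells and somatostatin in delta cells, and share granins such as chromogranin A.

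The 3 libraries held between 88397368 and 127119509 UMIs, and the kept cells had median depths of 36997 to 48538 UMIs. The summed ONECUT3-positive cells held 1689040 UMIs in the CD49a-positive library, 4282586 in the CD49a-negative library and 2725638 in the unsorted library. ONECUT3-positive cells were somewhat deeper than ONECUT3-zero cells, with medians of 37016 and 34315 UMIs over all libraries, and their median mitochondrial share was lower in each library (5.62% to 6.64% against 6.45% to 7.57%). No doublet caller was run, and 1, 11 and 1 of the ONECUT3-positive cells lay among the deepest 5% of cells of the CD49a-positive, CD49a-negative and unsorted libraries. Between libraries, 4 barcodes of kept cells were shared, none of them of a ONECUT3-positive cell.

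ONECUT3-positive cells made up 1.50% of kept cells in the CD49a-positive library (36 cells, exact binomial 95% interval 1.06% to 2.08%). The share was 4.55% in the CD49a-negative library (90 cells, 3.68% to 5.57%) and 2.75% in the unsorted library (62 cells, 2.11% to 3.51%). The unsorted share lay between those of the sorted fractions, and its interval did not overlap that of either. These intervals cover counting error only, and with 1 library a group no test of the sort was possible. The INS limit removes different numbers of cells from each library, so the shares were also taken among cells under both limits: 5.96% (4.21% to 8.16%), 9.38% (7.61% to 11.4%) and 7.12% (5.50% to 9.03%) in the CD49a-positive, CD49a-negative and unsorted libraries, with overlapping intervals. With each cell thinned to 10000 UMIs, the shares of kept cells were 0.727%, 1.47% and 0.915%, and the shares of cells under both limits were 2.82%, 3.19% and 2.50%.

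The ONECUT3 gene (ENSG00000205922) lies at chr19:1752373-1780988 on the plus strand of GRCh38. Its summed level in the selected cells was 110 CPM (UMIs per 1000000 UMIs) in the CD49a-positive library, 104 CPM in the CD49a-negative library and 128 CPM in the unsorted library. The median cell held 4 ONECUT3 UMIs, the highest held 19, and 51 of the 188 stood at the limit of 2. Near the INS limit, 26 selected cells held 200 to 300 INS UMIs per 10000 and 20 cells with 2 or more ONECUT3 UMIs were left out at 300 to 400. Near the TPH1 limit, 33 selected cells held 1 to 2 TPH1 UMIs per 10000, 19 were left out at 2 to 3, and 98 of the selected cells held no TPH1 UMI. Summed TPH1 in the selected cells was 43.2, 53.5 and 48.4 CPM in the CD49a-positive, CD49a-negative and unsorted libraries. ONECUT3-zero cells, under the same limit, held 18.4, 32.5 and 28.2 CPM, less in each library.

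Detection of ONECUT3 was not confined to these cells. Of 511 kept cells with at least 2 ONECUT3 UMIs, 188 (36.8%) passed both limits, 175 were INS-rich and 148 were TPH1-rich. Among INS-rich cells 5.79%, 6.50% and 5.92% held at least 2 UMIs in the CD49a-positive, CD49a-negative and unsorted libraries. Among TPH1-rich cells the shares were 12.7%, 12.6% and 10.9%. The 188 cells are thus the portion of cells with ONECUT3 transcripts that is low in INS and TPH1, set by the limits and not by a gap in the data, and they are not low in every hormone, since GCG stood at 7178 to 22180 CPM.

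The endocrine label was checked first. CHGA, encoding chromogranin A, had UMIs in 188 of 188 ONECUT3-positive cells and 2169 of 2172 ONECUT3-zero cells, a count too near its ceiling to separate classes, and its per-cell level ran from 0.550 through a median of 97.8 to 505 UMIs per 10000. Of the marker genes given with the cells, GC (ENSG00000145321), which encodes the vitamin D-binding protein made by liver and alpha cells, was found in 127 of 188 (67.6%) against 797 of 2172 (36.7%) ONECUT3-zero cells. Its summed level was 218, 358 and 305 CPM in the CD49a-positive, CD49a-negative and unsorted libraries, against 42.0, 65.3 and 60.2 CPM in ONECUT3-zero cells, a log2 difference of 2.32. Every library showed GC higher in ONECUT3-positive cells, but 61 of the 188 cells held no GC UMI. GC and SERPINA1 were already known to lead a cluster of these data with ONECUT3 and are given without a test.

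SERPINA1, encoding the protease inhibitor alpha-1 antitrypsin, was spread less evenly. It was found in 89 of 188 ONECUT3-positive cells (47.3%) and in 764 of 2172 ONECUT3-zero cells (35.2%). Its level was 287 CPM in the CD49a-positive library, 131 CPM in the CD49a-negative library and 69.7 CPM in the unsorted library, against 35.3, 61.0 and 45.8 CPM in ONECUT3-zero cells. A single cell held 83.3% of the SERPINA1 UMIs of the CD49a-positive library, and without it the level there was 48.4 CPM. The median ONECUT3-positive cell had no SERPINA1 UMI.

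Of the related genes, ONECUT1 was nearly absent and ONECUT2 was found in most cells of both classes. No ONECUT1 UMI was counted in any ONECUT3-positive cell, which allows a level of up to 0.345 CPM and a share of up to 1.60% of cells with a UMI, and ONECUT3-zero cells held 2 UMIs in all. ONECUT2 was found in 187 of 188 ONECUT3-positive and 2016 of 2172 ONECUT3-zero cells (92.8%). Its level was 386, 396 and 441 CPM against 337, 301 and 315 CPM in the CD49a-positive, CD49a-negative and unsorted libraries, a log2 fold change of 0.28 ± 0.07 (SE, n = 3 library pairs, edgeR adjusted p = 0.0312). All ONECUT2 levels of ONECUT3-positive cells were above all those of ONECUT3-zero cells, by a small margin. Against the GCG-rich ONECUT3-zero cells described below, ONECUT2 was not called (log2 0.26, edgeR adjusted p = 0.0678).

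To ask what else distinguished cells with ONECUT3 transcripts, UMIs were summed by library and class and compared by edgeR's quasi-likelihood test with the library as a block and Benjamini-Hochberg adjustment over all genes tested. Of 17136 genes, 612 were higher (3.57%) and 584 lower (3.41%) in ONECUT3-positive cells at adjusted p under 0.05, and the median log2 fold change of all genes was -0.01. The genes with the highest fold changes were led by SNCG, encoding gamma-synuclein. The lowest included GCG and SST. Without the library block 100 genes were higher and 30 lower, and without the unsorted library 362 were higher and 354 lower.

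SNCG (ENSG00000173267, chr10:86958618-86963260, plus strand) encodes a small cytoplasmic protein of the synuclein family that is abundant in neurons. Its level in ONECUT3-positive cells was 50.3 CPM in the CD49a-positive library, 85.5 CPM in the CD49a-negative library and 105 CPM in the unsorted library. In ONECUT3-zero cells the values were 1.54, 2.26 and 1.28 CPM, a log2 fold change of 5.49 ± 0.20 (SE, edgeR adjusted p = 1.94e-06). The library levels of the classes did not overlap. SNCG UMIs were found in 110 of 188 ONECUT3-positive cells (58.5%) and in 98 of 2172 ONECUT3-zero cells (4.51%), and at 10000 UMIs a cell in 34.4% and 1.22%. Single cells did overlap, with a highest value of 11.4 UMIs per 10000 in ONECUT3-positive and 18.4 in ONECUT3-zero cells. The gene MMRN2 overlaps SNCG on the other strand.

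CADM2, a cell adhesion molecule of the synapse, stood at 571, 205 and 449 CPM in ONECUT3-positive cells of the CD49a-positive, CD49a-negative and unsorted libraries against 111, 63.5 and 120 CPM in ONECUT3-zero cells (log2 1.91 ± 0.10, edgeR adjusted p = 2.06e-05). CNTNAP4, a contactin-associated protein of the neurexin superfamily, stood at 66.9, 94.6 and 66.8 CPM against 20.9, 17.3 and 18.5 CPM (log2 1.96 ± 0.14, edgeR adjusted p = 9.31e-05). For RIMS1, a scaffold of the presynaptic active zone, the values were 245, 88.0 and 178 CPM against 81.1, 26.0 and 34.5 CPM (log2 1.83 ± 0.13, edgeR adjusted p = 9.07e-05). All 3 genes were higher in every library, with no overlap between classes, although RIMS1 in ONECUT3-zero cells of the CD49a-positive library came close to ONECUT3-positive cells of the CD49a-negative library.

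CALB2, encoding the calcium-binding protein calretinin, reached 341, 315 and 451 CPM in the CD49a-positive, CD49a-negative and unsorted libraries against 143, 69.3 and 76.1 CPM (log2 1.94 ± 0.19, edgeR adjusted p = 0.000397) and was found in 139 of 188 ONECUT3-positive cells. TRPC7, a cation channel of the plasma membrane, reached 58.6, 38.3 and 107 CPM against 8.53, 14.4 and 21.2 CPM (log2 2.04 ± 0.20, edgeR adjusted p = 0.000356). The lowest ONECUT3-positive library lay above the highest ONECUT3-zero library for both genes.

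TFF3, encoding a trefoil peptide secreted by intestinal goblet cells, was present in 154 of 188 ONECUT3-positive cells (81.9%) and 1169 of 2172 ONECUT3-zero cells (53.8%). Its levels of 139, 197 and 196 CPM in the CD49a-positive, CD49a-negative and unsorted libraries compared with 33.1, 57.0 and 47.7 CPM (log2 1.88 ± 0.07, edgeR adjusted p = 2.35e-06). TM4SF4, a tetraspanin-like membrane protein known from alpha cells and liver, stood at 88.2, 100 and 87.0 CPM against 17.6, 24.7 and 26.1 CPM (log2 1.93 ± 0.11, edgeR adjusted p = 2.06e-05). TM4SF4 was thus an alpha cell gene that was higher while GCG was lower.

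Of the other genes among the 12 highest, TTC29, a tetratricopeptide repeat protein of motile cilia, had a log2 fold change of 2.12 and TMEFF2, a transmembrane protein with follistatin-like domains, one of 1.83. CHSY3, a chondroitin sulfate synthase, stood at 78.2, 15.4 and 59.8 CPM against 9.73, 7.61 and 9.11 CPM (log2 2.23), and DLK1, an imprinted relative of Notch ligands, at 189, 159 and 348 CPM against 66.6, 59.3 and 53.5 CPM (log2 1.82). Both were higher in all 3 libraries, but a single cell held 17.7% of the CHSY3 UMIs and 25.7% of the DLK1 UMIs of all ONECUT3-positive cells.

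**Figure D1:**
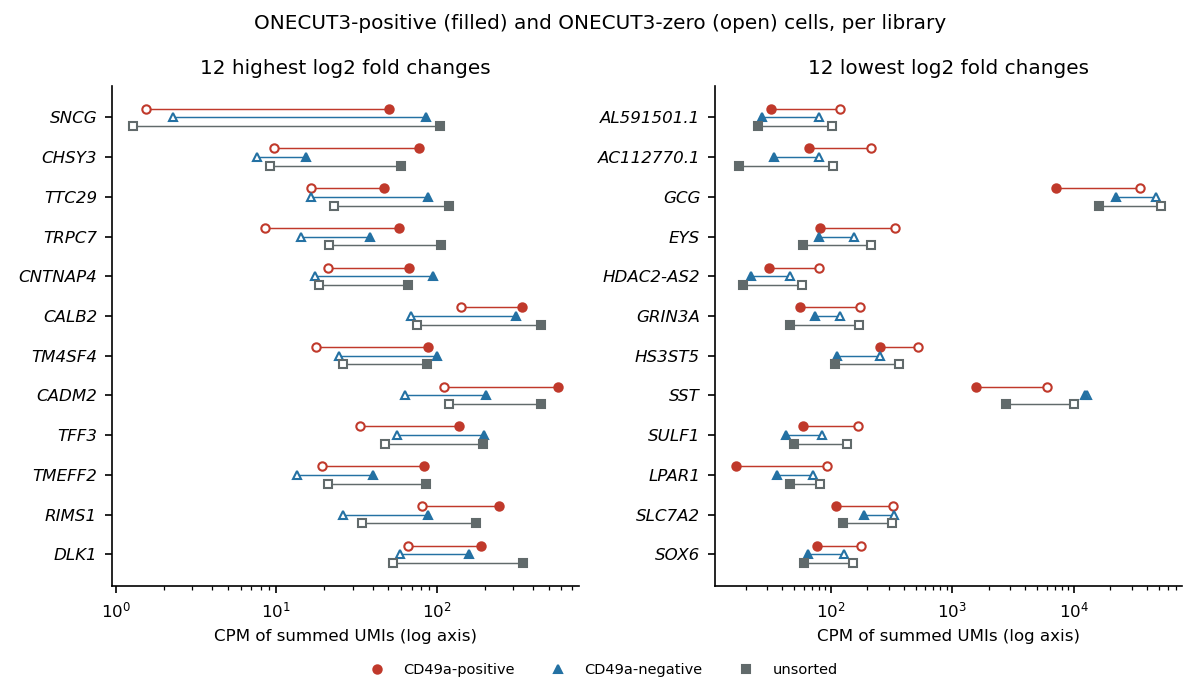
Summed levels (CPM, log axis) of the 12 genes with the highest and the 12 with the lowest log2 fold changes, in ONECUT3-positive cells (filled) and ONECUT3-zero cells (open), with 1 symbol shape per library and a line joining the classes of 1 library. The 3 SNCG lines are the longest, and the SST pair of the CD49a-negative library nearly coincides at 12422 and 12970 CPM.

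GCG, the glucagon gene, was lower in ONECUT3-positive cells. Its level was 7178 CPM in the CD49a-positive library, 22180 CPM in the CD49a-negative library and 16131 CPM in the unsorted library. ONECUT3-zero cells stood at 35040, 47627 and 52002 CPM, a log2 fold change of -1.77 ± 0.17 (SE, edgeR adjusted p = 0.000345). The highest ONECUT3-positive library remained below the lowest ONECUT3-zero library, and per cell the median was 1.84 GCG UMIs per 10000 in ONECUT3-positive cells, whose highest cell held 1315, and 144 in ONECUT3-zero cells.

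SST, encoding somatostatin, differed less evenly. Its levels of 1580, 12422 and 2772 CPM in the CD49a-positive, CD49a-negative and unsorted libraries compared with 6061, 12970 and 10119 CPM (log2 -1.38 ± 0.30, edgeR adjusted p = 0.0232). The classes overlapped, the CD49a-negative library showed almost no difference, and without the unsorted library the gene no longer passed the threshold.

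The other low genes were of several kinds. SLC7A2, a transporter of arginine and other cationic amino acids, stood at 111, 189 and 126 CPM against 325, 329 and 317 CPM (log2 -1.26 ± 0.12, edgeR adjusted p = 0.000325). Enzymes that modify heparan sulfate included HS3ST5, a sulfotransferase (log2 -1.39), and SULF1, an extracellular sulfatase (log2 -1.37). GRIN3A, a subunit of NMDA receptors, had a log2 fold change of -1.40, the lysophosphatidic acid receptor gene LPAR1 one of -1.28, the transcription factor gene SOX6 one of -1.24 and EYS, a gene of photoreceptors, one of -1.64. The noncoding genes AL591501.1 on the X chromosome (log2 -1.88), AC112770.1 (log2 -1.80) and HDAC2-AS2 (log2 -1.40) completed the 12. HDAC2-AS2 overlaps HS3ST5 on the other strand, so reads of the pair may not be fully separated.

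Promoter sequences are shown for genes of both directions, because SNCG, TM4SF4 and TTC29 were higher and GCG and SST lower in the same cells. The 250 bases before the annotated start come from RefSeq, assembly GRCh38.p14, which held windows for 7 of the 12 highest genes (not TRPC7, CALB2, CADM2, TFF3 or DLK1) and for 8 of the 12 lowest (not AL591501.1, AC112770.1, SULF1 or SLC7A2). ATCAAT and ATCGAT, cores to which ONECUT factors are known to bind, were searched on both strands, so ATCAAT also counts as ATTGAT, and capitals mark each match. The sites lie at chr10:86958349-86958598 on the plus strand (SNCG, the second annotated start), chr3:149474447-149474696 on the plus strand (TM4SF4), chr4:146945865-146946114 on the minus strand (TTC29), chr2:162152248-162152497 on the minus strand (GCG) and chr3:187670395-187670644 on the minus strand (SST).
SNCG: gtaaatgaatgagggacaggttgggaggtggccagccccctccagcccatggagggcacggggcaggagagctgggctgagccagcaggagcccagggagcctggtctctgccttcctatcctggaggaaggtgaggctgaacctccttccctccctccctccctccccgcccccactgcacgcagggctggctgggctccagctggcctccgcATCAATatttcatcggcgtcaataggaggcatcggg
TM4SF4: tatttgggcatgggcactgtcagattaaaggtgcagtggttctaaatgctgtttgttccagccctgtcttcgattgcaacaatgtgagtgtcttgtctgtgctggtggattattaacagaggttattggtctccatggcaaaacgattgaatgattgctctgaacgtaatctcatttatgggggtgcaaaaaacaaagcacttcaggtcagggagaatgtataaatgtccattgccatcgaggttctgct
TTC29: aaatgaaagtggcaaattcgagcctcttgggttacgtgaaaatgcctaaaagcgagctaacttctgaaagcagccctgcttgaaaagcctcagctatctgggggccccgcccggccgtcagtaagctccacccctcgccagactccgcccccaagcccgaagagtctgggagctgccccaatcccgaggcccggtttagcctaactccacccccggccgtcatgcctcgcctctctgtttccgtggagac
GCG: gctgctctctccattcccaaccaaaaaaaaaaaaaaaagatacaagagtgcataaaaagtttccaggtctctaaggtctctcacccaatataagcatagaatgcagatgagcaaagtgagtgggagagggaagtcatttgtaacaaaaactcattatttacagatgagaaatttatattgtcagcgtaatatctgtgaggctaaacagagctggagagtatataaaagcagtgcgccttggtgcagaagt
SST: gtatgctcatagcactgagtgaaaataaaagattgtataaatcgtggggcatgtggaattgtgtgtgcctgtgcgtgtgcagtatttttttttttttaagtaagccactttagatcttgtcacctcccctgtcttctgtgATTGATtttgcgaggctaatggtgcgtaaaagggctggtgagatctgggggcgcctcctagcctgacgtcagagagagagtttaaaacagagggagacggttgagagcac
The SNCG window shown held ATCAAT 36 bases before the start, and the SST window held it on the other strand 110 bases before the start. The window of the first annotated SNCG start, chr10:86955509-86955758, held neither motif. The TM4SF4, TTC29 and GCG windows held neither motif. Over the 12 highest genes 2 of 10 windows (20%) and over the 12 lowest 2 of 18 (11.1%) held ATCAAT, and none held ATCGAT, against 5.58% and 0.655% of 35116 windows of all genes. These are matches of letters only.

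Genes below the 50 CPM needed for the list above included some with large fold changes, and the following were chosen after their values were seen. CUX2, another cut-domain transcription factor gene, stood at 47.4, 26.2 and 40.0 CPM in the CD49a-positive, CD49a-negative and unsorted libraries against 1.40, 0.732 and 0.672 CPM (log2 5.28, edgeR adjusted p = 2.98e-06). POSTN, the gene of the matrix protein periostin, stood at 16.6, 40.6 and 44.0 CPM against 0.771, 1.97 and 1.04 CPM (log2 4.66, edgeR adjusted p = 1.84e-05). PEG10, an imprinted gene derived from a retrotransposon and overlapped by SGCE on the other strand, stood far higher at 809, 1598 and 1410 CPM against 348, 413 and 406 CPM (log2 1.59, edgeR adjusted p = 9.88e-05). In each of these genes all ONECUT3-positive libraries lay above all ONECUT3-zero libraries.

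Several of these transcripts were detected in the same cells. Of GC, SNCG, CUX2, POSTN and TM4SF4, chosen after their values were seen, at least 3 had UMIs in 88 of 188 ONECUT3-positive cells (46.8%) and in 48 of 2172 ONECUT3-zero cells (2.21%). All 5 were found in 16 ONECUT3-positive cells and in no ONECUT3-zero cell, while 15 ONECUT3-positive cells (7.98%) held none of them. At least 3 were found in 13 of 36 cells of the CD49a-positive library, 49 of 90 of the CD49a-negative library and 26 of 62 of the unsorted library. The 5 transcripts were therefore not found together in every ONECUT3-positive cell.

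The levels also differed with the number of ONECUT3 UMIs in the cell. In cells with 0, 1, 2, 3 to 4 and at least 5 UMIs, SNCG stood at 1.72, 24.5, 27.7, 46.3 and 150 CPM over all libraries. GCG pooled over libraries went the other way, from 46026 through 31265, 22079 and 18497 to 13432 CPM, but in the CD49a-positive library it was 35040, 9532, 851, 6995 and 11255 CPM, lowest at 2 UMIs. CALB2 stood at 90.4, 158, 177, 245 and 571 CPM and TFF3 at 47.6, 102, 133, 164 and 237 CPM. The 74 cells with 1 UMI, outside the limit, lay between ONECUT3-zero cells and cells with 2 UMIs for these 4 genes in the pooled values. They also did so for PEG10 and CUX2, but not for GC, SERPINA1 and DLK1. Those 3 genes stood at 174, 142 and 127 CPM with 1 UMI and at 134, 78.1 and 107 CPM with 2. TTR, the transthyretin gene expressed in alpha cells, differed mainly at the upper end, with 29658, 29462, 30383, 22472 and 14693 CPM. The order did not hold in every library: GCG in the unsorted library was 19868 CPM at 2 UMIs and 23160 CPM at 3 to 4, CALB2 in the CD49a-positive library was 400 CPM at 2 UMIs and 313 CPM at 5 or more, and GC in the CD49a-positive library was 52.7 CPM at 2 UMIs, 37.6 CPM at 3 to 4 and 447 CPM at 5 or more. Deeper cells reach more UMIs of every gene, and the part of depth in this order was not tested.

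**Figure D2:**
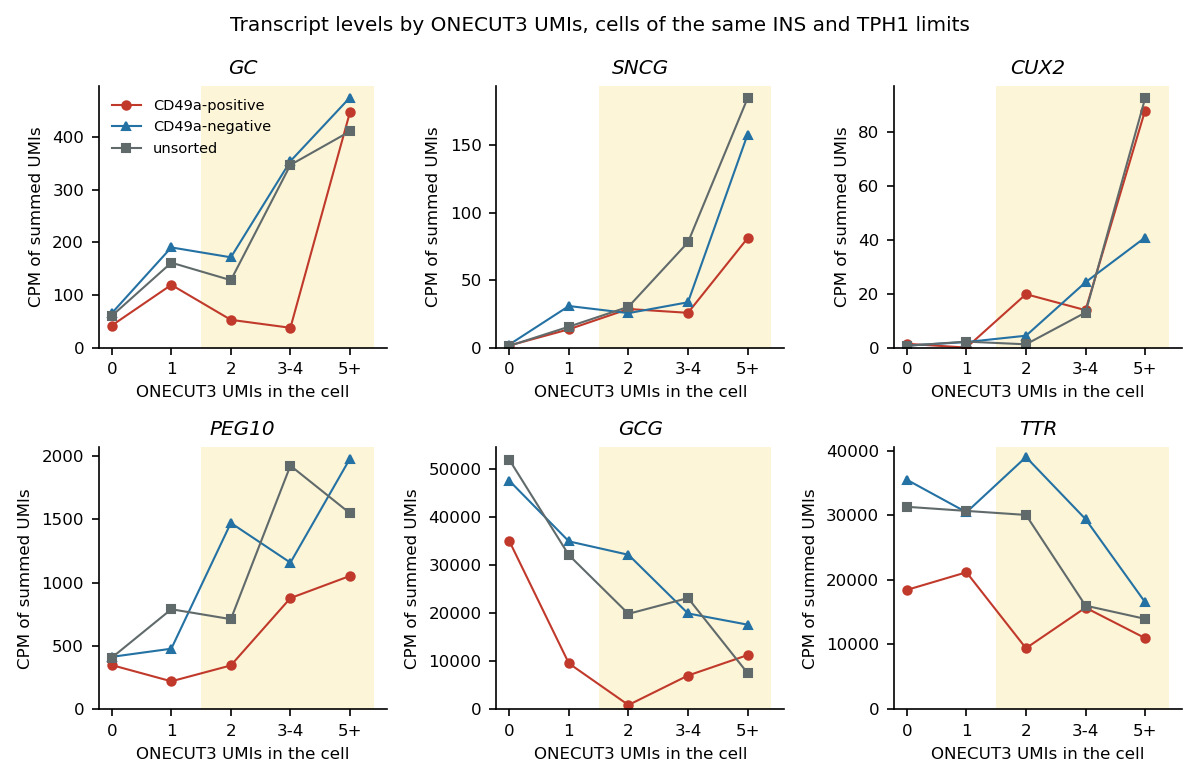
Summed levels (CPM, linear axes) of GC, SNCG, CUX2, PEG10, GCG and TTR in cells under both limits, by the number of ONECUT3 UMIs in the cell, with 1 line per library, and with shading over the ONECUT3-positive cells. SNCG reached 150 CPM over all libraries at 5 or more UMIs, and GCG was highest in cells with 0.

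Genes from lists of pathways and cell types showed where the ONECUT3-positive cells differed. Of alpha cell genes, 2 of 17 tested were higher and 13 lower, with a median log2 fold change of -0.60 against -0.01 for all genes. Besides GCG these included DPP4, a surface peptidase, at 41.4, 153 and 129 CPM against 154, 211 and 174 CPM in the CD49a-positive, CD49a-negative and unsorted libraries (log2 -0.84). They also included the transcription factor genes IRX1 (log2 -0.52) and IRX2 (log2 -0.39). Within each library the ONECUT3-positive DPP4 value was the lower. TM4SF4 and FEV (log2 0.40), a transcription factor of serotonin-producing cells, were the members that were higher.

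Of beta cell genes, 5 of 18 tested were higher and 5 lower, with a median log2 fold change of 0.10. NKX6-1, a transcription factor of beta cells, stood at 68.1, 53.5 and 53.9 CPM in the CD49a-positive, CD49a-negative and unsorted libraries against 38.5, 30.6 and 27.4 CPM (log2 0.79 ± 0.08, edgeR adjusted p = 0.00059). ADCYAP1, encoding the neuropeptide PACAP, had a log2 fold change of 1.60 and PAX4 one of 0.56. The zinc transporter gene SLC30A8 (log2 -0.91) and the calcium-sensing receptor gene CASR (log2 -0.81) were lower, as was G6PC2, a glucose-6-phosphatase (log2 -1.82), at levels under 10 CPM. UCN3, a marker of mature beta cells, had no UMI in ONECUT3-positive cells. INS, held below a limit in both classes, stood at 14127, 8487 and 9298 CPM against 12597, 9138 and 9317 CPM.

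Endocrine progenitor genes were split, with 7 of 18 tested higher and 5 lower and a median log2 fold change of 0.25. NEUROG3, which starts endocrine differentiation, stood at 10.7, 9.57 and 9.17 CPM in the CD49a-positive, CD49a-negative and unsorted libraries against 1.88, 3.18 and 2.29 CPM (log2 1.89 ± 0.26, edgeR adjusted p = 0.00243). The library levels of the classes did not overlap. SOX4 (log2 0.74) and SOX11 (log2 0.65) were also higher, as were PAX4 (log2 0.56) and INSM1 (log2 0.30). Lower were RFX6 (log2 -0.67), PAX6 (log2 -0.46), ISL1 (log2 -0.42) and NEUROD1 (log2 -0.35), and NKX2-2 (log2 0.25) and MYT1 (log2 0.25) were not called.

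Neural genes were higher in 6 of 9 tested and lower in none, with a median log2 fold change of 0.57. NEFM, a neurofilament subunit, stood at 288, 192 and 369 CPM in the CD49a-positive, CD49a-negative and unsorted libraries against 105, 81.1 and 81.9 CPM (log2 1.55), and NEFL, another subunit, had a log2 fold change of 2.37. GAP43, a protein of growing axons (log2 0.76), and TUBB3, a neuronal tubulin (log2 0.57), were higher as well. Summed over the list the levels were 1613, 1383 and 1764 CPM against 1033, 1031 and 1024 CPM, and the neural crest factor gene SOX10 had no UMI. The part that other neural cells could have in these levels was not tested.

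Among ONECUT and liver-enriched transcription factor genes, 4 of 14 tested were higher and none lower, with a median log2 fold change of 0.25. They were ONECUT2, HNF4G (log2 0.58), the pioneer factor gene FOXA2 (log2 0.52) and GATA6 (log2 1.08), the last at 18.4, 30.6 and 19.1 CPM in the CD49a-positive, CD49a-negative and unsorted libraries against 8.72, 10.4 and 11.7 CPM. Plasma protein and apolipoprotein genes were split, with 4 of 14 tested higher and 3 lower. AMBP, encoding the precursor of alpha-1-microglobulin, stood at 27.2, 22.6 and 28.2 CPM against 3.37, 6.14 and 6.89 CPM (log2 2.16), and APOA1 had a log2 fold change of 1.27. ALB, the albumin gene, was called higher (log2 3.90) at 5.33, 6.31 and 3.67 CPM, with UMIs in 10 cells. TTR was lower at 11976, 26360 and 19487 CPM against 18449, 35499 and 31313 CPM (log2 -0.66). Of 30 genes on this list 9 had no UMI in ONECUT3-positive cells, among them FGA, HP and SERPINA3.

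Prohormone processing and granin genes numbered 5 of 17 tested higher and 4 lower. SCG2, encoding secretogranin II, had a log2 fold change of 0.93 and CHGA one of 0.26, while PCSK2, the convertase that yields glucagon, had one of -0.41 and PTPRN2, a granule membrane protein, one of -0.58. In enterochromaffin genes 2 of 11 tested were higher and none lower, and besides FEV this was DDC, the decarboxylase of serotonin synthesis (log2 0.71). Of gut peptide genes 2 of 22 were higher and 6 lower. The peptide YY gene PYY stood at 0.592, 5.14 and 3.30 CPM in the CD49a-positive, CD49a-negative and unsorted libraries against 9.39, 16.5 and 18.8 CPM (log2 -2.23), and NPW, encoding neuropeptide W, had a log2 fold change of 0.71.

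The remaining lists can be read against the 3.57% of all genes called higher and 3.41% called lower. Delta cell genes had 1 of 7 tested higher and 3 lower, and epsilon and PP cell genes 2 of 11 higher, BHMT (log2 2.29) and MEIS2 (log2 0.90). Glucose sensing and potassium channel genes had 1 of 13 higher and 3 lower, with ABCC8, the sulfonylurea receptor subunit, at a log2 fold change of -0.48. Receptor genes had 1 of 18 higher and 2 lower, unfolded protein response genes 0 of 14 higher and 1 lower, and immediate early genes 0 of 13 higher and 1 lower. Proliferation genes had 0 of 10 higher and 2 lower, PCNA (log2 -0.57) and TYMS (log2 -1.18).

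Acinar genes summed to 2.37, 3.27 and 0.734 CPM in ONECUT3-positive cells of the CD49a-positive, CD49a-negative and unsorted libraries, with 7 of 12 at 0, and the endothelial markers CDH5, VWF and KDR were at 0. Duct genes had no call in either direction among 8 tested. Mesenchymal genes summed to 22.5, 52.3 and 51.4 CPM against 8.14, 22.3 and 17.7 CPM, most of it POSTN, with LUM, PDGFRA and PDGFRB at 0. Intestinal epithelium genes had 2 of 6 tested higher, TFF3 and ONECUT2, and 1 lower, and CDX1, FABP1, FABP2, GUCA2A and KRT20 were at 0.

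**Figure D3:**
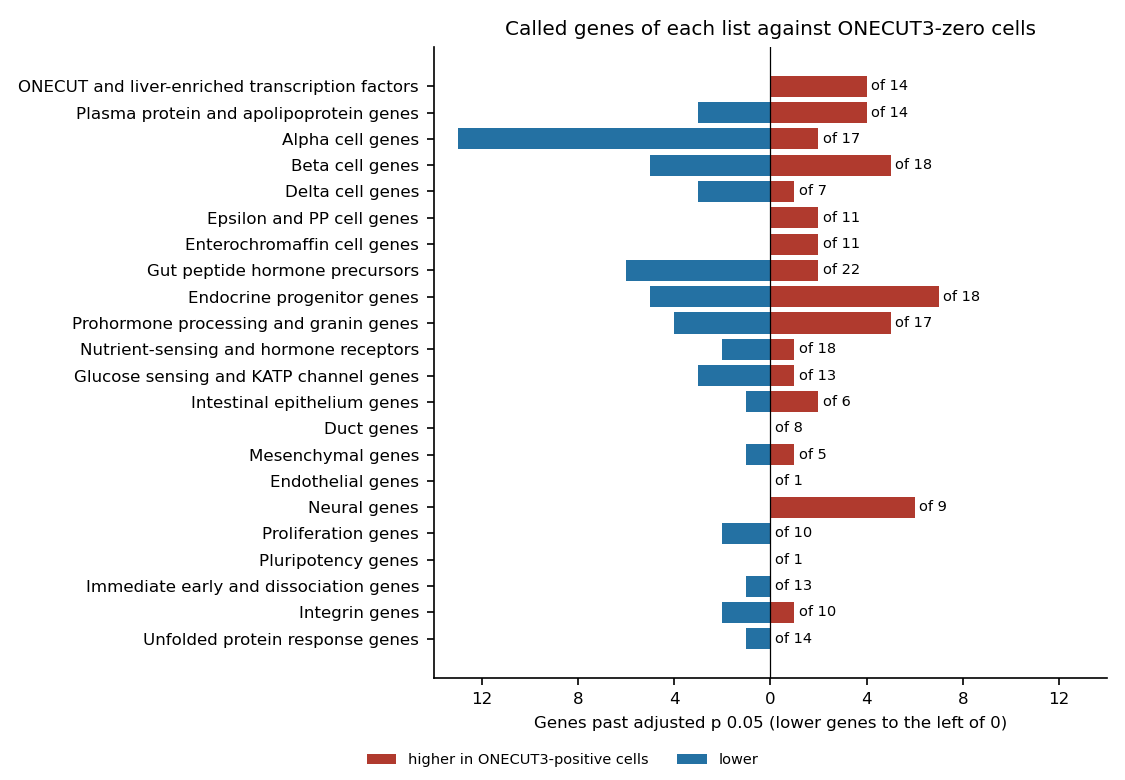
Numbers of genes of each list called higher (right of 0) or lower (left of 0) in ONECUT3-positive than in ONECUT3-zero cells at adjusted p under 0.05, with the number tested beside each bar. The longest bar to the left is that of alpha cell genes, 13 of 17, and the neural genes have 6 of 9 to the right and none to the left.

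The hormone gene with the most UMIs differed between the classes. INS led in 122 of 188 ONECUT3-positive cells (64.9%), GCG in 44 (23.4%), SST in 17 (9.04%), IAPP in 4 and GHRL in 1, while PPY and PYY led in none. In ONECUT3-zero cells GCG led in 1170 of 2172 (53.9%), INS in 712 (32.8%) and SST in 247 (11.4%). INS led in 80.6%, 53.3% and 72.6% of ONECUT3-positive cells of the CD49a-positive, CD49a-negative and unsorted libraries against 47.8%, 23.6% and 31.8% of ONECUT3-zero cells. INS RNA was also counted in cells led by other hormones: ONECUT3-positive cells led by INS held 10052 CPM, while ONECUT3-zero cells held 14651 CPM where INS led, 8137 CPM where GCG led and 8615 CPM where SST led. By library, ONECUT3-positive cells led by INS held 15910, 8946 and 6504 CPM of INS in the CD49a-positive, CD49a-negative and unsorted libraries, against 17050, 13531 and 12674 CPM in ONECUT3-zero cells led by INS and 8217, 8055 and 8191 CPM in those led by GCG. The CD49a-positive value lay near that of ONECUT3-zero cells led by INS, and those of the other libraries lay nearer to ONECUT3-zero cells led by GCG. How much of the INS RNA was free RNA was not tested.

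SNCG and PEG10 were compared within cells led by the same hormone, pooled over libraries. SNCG stood at 42.1 CPM in ONECUT3-positive against 1.30 CPM in ONECUT3-zero cells led by GCG, at 96.9 against 0.879 CPM in cells led by SST, and at 110 against 2.66 CPM in cells led by INS. PEG10 stood at 1085 against 374 CPM, 1466 against 459 CPM and 1567 against 346 CPM in the same order. GC stood at 339 against 83.1 CPM, 129 against 17.6 CPM and 352 against 21.1 CPM. All 3 genes were higher in ONECUT3-positive cells of each library under each of these hormones, except GC in unsorted cells led by SST, at 20 against 35.5 CPM in 4 and 91 cells. SNCG in unsorted cells led by GCG was 4.81 against 1.10 CPM, well below the pooled value, in 11 ONECUT3-positive cells. With only cells led by INS compared, 722 of 14460 genes were higher (4.99%) and 706 lower (4.88%), and with only cells led by GCG, 102 of 14719 were higher (0.693%) and 61 lower (0.414%). Both subsets were added after the data were seen, and the second holds 44 ONECUT3-positive cells, 3 of them from the CD49a-positive library. All 12 of the highest genes were also called higher in cells led by INS, and 9 in cells led by GCG. CHSY3, TRPC7 and TMEFF2 were not called in cells led by GCG. TTC29 was called there, with 0 against 5.12 CPM in the CD49a-positive library. From the 12 lowest genes, 9 were called lower in cells led by INS and 6 in cells led by GCG, with no test of GCG and SST.

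**Figure D4:**
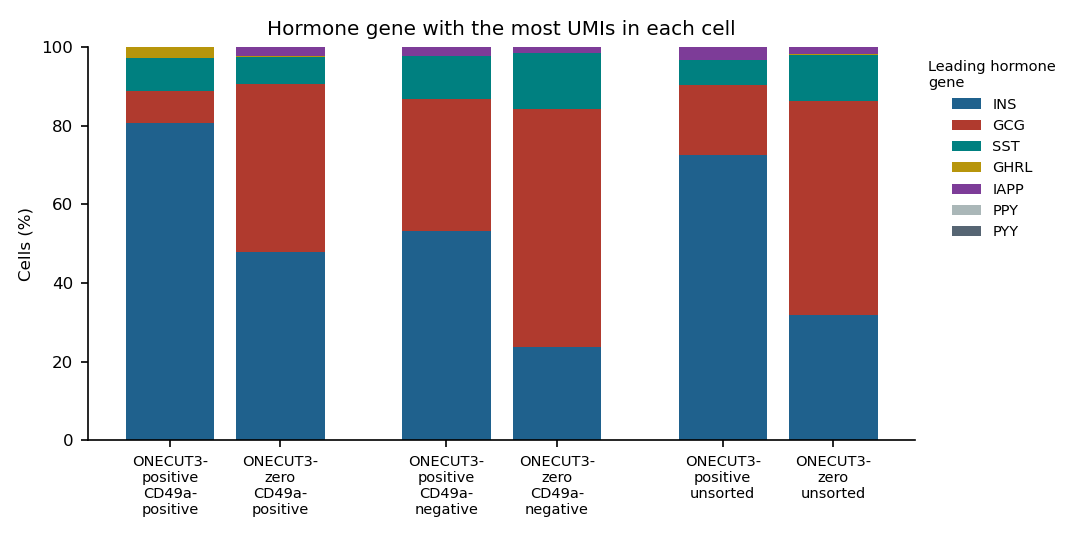
Share of cells (%) in which each of 7 hormone genes has the most UMIs, in ONECUT3-positive and ONECUT3-zero cells of each library. The INS portion is larger in ONECUT3-positive cells of each library (80.6%, 53.3% and 72.6%), and the GCG portion is larger in ONECUT3-zero cells.

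Since many ONECUT3-zero cells were not alpha cells, ONECUT3-positive cells were also set against the 1151 ONECUT3-zero cells with at least 100 GCG UMIs per 10000, which are chosen on GCG, so that GCG itself is not tested. Of 15549 genes 1312 were higher (8.44%) and 1003 lower (6.45%). This comparison shares the ONECUT3-positive cells with the one above and is no independent repeat of it. Without the library block 709 were higher and 358 lower, without the unsorted library 642 and 348, and without the CD49a-positive library 963 and 647.

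SNCG again had the highest fold change, with 0.704, 1.59 and 1.07 CPM in GCG-rich cells of the CD49a-positive, CD49a-negative and unsorted libraries (log2 5.98 ± 0.16, edgeR adjusted p = 3.73e-07). NRG3, a ligand of ErbB4 receptors, stood at 255, 113 and 190 CPM in ONECUT3-positive cells against 15.6, 13.2 and 11.8 CPM (log2 3.55 ± 0.17, edgeR adjusted p = 1.29e-05). EBF1, a transcription factor gene, stood at 111, 36.9 and 71.2 CPM against 8.65, 5.65 and 5.56 CPM (log2 3.20). The library levels of the classes did not overlap for these genes. Other genes among the 12 highest were the protocadherin gene PCDH11X (log2 3.44), the transcription factor gene MECOM (log2 3.10) and the potassium channel subunit gene KCNS3 (log2 3.03).

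Lower than in GCG-rich cells were again GRIN3A (log2 -1.98), LPAR1 (log2 -1.85) and SLC7A2 (log2 -1.64). CXCL1, a chemokine gene, stood at 0, 27.6 and 11.0 CPM against 51.0, 57.4 and 45.7 CPM (log2 -1.96, edgeR adjusted p = 0.00968), with no UMI in the CD49a-positive library, and lost its call without the library block and with DESeq2. Against GCG-rich cells 11 of 18 beta cell genes were higher and 2 lower, 9 of 11 enterochromaffin genes were higher and none lower, and 7 of 9 neural genes were higher and none lower. Immediate early genes had 0 of 13 higher and 7 lower. Alpha cell genes are not counted here, because the GCG limit chose the reference for alpha cell transcripts. That choice also bears on the counts of the beta cell, enterochromaffin, neural and immediate early lists. Against all ONECUT3-zero cells, 5 of 18 beta cell, 2 of 11 enterochromaffin and 6 of 9 neural genes were higher. There 1 of 13 immediate early genes was lower.

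Whether the same genes went with ONECUT3 in cells outside the limits was asked in comparisons added after the data were seen. They share no cell with those above but come from the same 3 libraries. In INS-rich cells, 175 cells with at least 2 ONECUT3 UMIs were compared with cells holding 0, and of 16855 genes 441 were higher (2.62%) and 475 lower (2.82%). In TPH1-rich cells, 148 such cells were compared in the same way, and of 14435 genes 864 were higher (5.99%) and 995 lower (6.89%). These counts rest on single libraries: in INS-rich cells 76 were higher and 55 lower without the unsorted library and 260 and 226 without the CD49a-positive library, and in TPH1-rich cells 275 and 481 without the CD49a-negative library.

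Of the 12 highest genes, 9 were also called higher in INS-rich cells. In TPH1-rich cells 7 were called higher and 1, TRPC7, was called lower (log2 -0.43, edgeR adjusted p = 0.0301). SNCG had a log2 fold change of 3.30 in INS-rich and 4.20 in TPH1-rich cells, TFF3 of 1.40 and 1.76, and TM4SF4 of 1.90 and 1.54. Each of these was called in both sets. CADM2 (0.59 in INS-rich cells) and CALB2 (0.40 in INS-rich and 1.13 in TPH1-rich cells) had smaller values than in cells under both limits, and TTC29 and CHSY3 (0.96 for the latter) were called in INS-rich cells and not in TPH1-rich cells. CUX2 had values of 3.33 and 4.35, POSTN of 3.18 and 2.84, and GC, given without a test, of 2.78 and 2.86. The differences between sets of cells were not tested.

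Of the 12 lowest genes, 6 were also called lower in INS-rich cells, among them AC112770.1 (log2 -1.73), EYS (log2 -0.92) and SOX6 (log2 -0.68). In TPH1-rich cells 4 were called lower, including AL591501.1 (log2 -0.76) and SOX6 (log2 -0.70). GCG differed most: its log2 fold change was -1.77 in cells under both limits, 0.04 in INS-rich cells and 0.63 in TPH1-rich cells (edgeR adjusted p = 0.0401). Alpha cell genes as a list had 4 of 16 higher and 4 lower in INS-rich cells and 3 of 16 higher and 2 lower in TPH1-rich cells, and enterochromaffin genes 6 of 11 higher and none lower in INS-rich cells and 1 of 11 higher and 6 lower in TPH1-rich cells.

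**Figure D5:**
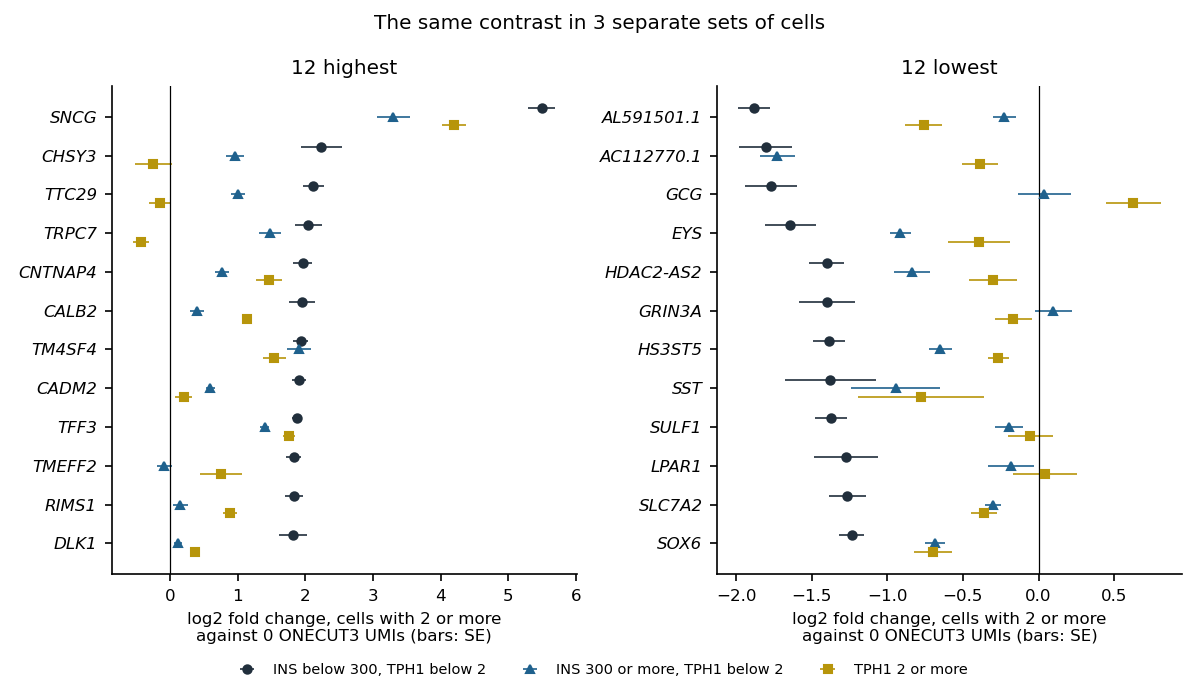
Log2 fold changes (± SE) of cells with at least 2 against cells with 0 ONECUT3 UMIs, for the 12 highest and 12 lowest genes, in cells under both limits (circles), INS-rich cells (triangles) and TPH1-rich cells (squares). SNCG lies at 5.49, 3.30 and 4.20, while GCG lies at -1.77, 0.04 and 0.63.

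Clustering of all kept cells, run without ONECUT3, TPH1 and INS among the genes used, spread the ONECUT3-positive cells over 14 of 16 clusters. The largest portion, 68 of 188 (36.2%), fell into 1 cluster of 175 cells, which held 12, 29 and 27 of them from the CD49a-positive, CD49a-negative and unsorted libraries. Of those 175 cells 119 (68.0%) held at least 2 ONECUT3 UMIs, and its leading genes included GC, ONECUT3, SNCG, POSTN, SERPINA1, CUX2, ID1, PEG10 and TM4SF4. It stays unnamed here, and its genes are a description because the clustering used them. A cluster led by GHRL and SST held 27 more ONECUT3-positive cells and one led by GCG held 20.

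ONECUT3-positive cells inside that cluster stood apart from the 120 outside it. Their ONECUT3 level was 175 against 83.6 CPM, their PEG10 level 2878 against 700 CPM, their GC level 736 against 121 CPM and their GCG level 9453 against 21012 CPM. SNCG stood at 160 CPM inside and 50.2 CPM outside, so for SNCG the cells outside the cluster were also above the ONECUT3-zero cells. By library (CD49a-positive, CD49a-negative, unsorted), GC in cells outside the cluster was 54.0, 167 and 85.2 CPM. ONECUT3-zero cells held 42.0, 65.3 and 60.2 CPM of GC. SERPINA1 outside was 16.6, 103 and 40.3 CPM against 35.3, 61.0 and 45.8 CPM, higher only in the CD49a-negative library. The 12 highest genes were above ONECUT3-zero cells outside the cluster in each library, by little for some. TMEFF2 outside was 65.7, 16.3 and 21.3 CPM against 19.2, 13.5 and 21.1 CPM. TRPC7 outside was 52.4, 17.6 and 60.4 CPM against 8.53, 14.4 and 21.2 CPM. The other 107 cells of the cluster held more of the gene products that the limits exclude, with 24276 CPM of INS and 544 CPM of TPH1, together with 350 CPM of GC and 73.6 CPM of SNCG.

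ITGA1, the gene of the sorted antigen, followed the sort inside the ONECUT3-positive cells as it did in ONECUT3-zero cells. Its level was 93.5 CPM (Poisson 95% interval 79.5 to 109) in the CD49a-positive library, 27.1 CPM (22.4 to 32.5) in the CD49a-negative library and 59.1 CPM (50.3 to 68.9) in the unsorted library. The intervals do not overlap and cover counting error only. ONECUT3-zero cells held 64.1, 19.4 and 28.2 CPM, so ITGA1 was higher in ONECUT3-positive cells (log2 0.62 ± 0.12, edgeR adjusted p = 0.0123). Among cells led by INS the log2 fold change was 0.05 (edgeR adjusted p = 0.849), and in INS-rich and TPH1-rich cells it was -0.20 and -0.14, not called. Of 10 integrin genes tested, ITGA1 was higher and ITGA2 (log2 -1.84) and ITGB1, the beta chain that pairs with CD49a (log2 -0.35), were lower.

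Between the sorted libraries, the 6 genes with the highest ratios within the 188 cells had most of their CD49a-positive UMIs in 1 cell. With 10 CPM added to each value, 134 of 4658 genes (2.88%) with at least 50 CPM and 50 UMIs in either library were at least 2-fold higher in the CD49a-positive than in the CD49a-negative library and 39 (0.837%) at least 2-fold lower. In ONECUT3-zero cells the same counts were 83 (1.88%) and 5 (0.113%) of 4407 genes. The metallothionein gene MT1E had the highest log2 ratio, 3.80, at 149 CPM (131 to 168) against 1.40 CPM (0.514 to 3.05), but 1 cell held 67.3% of its UMIs in the CD49a-positive library. MT2A (59.5%), MT1X (56.7%), ZNF804B (86.7%), GHRL (81.4%) and SGCZ (64.9%) likewise had most of their UMIs in 1 cell. Without the top cell of each gene, MT1E, MT2A and MT1X stood at 49.6, 56.9 and 116 CPM in the CD49a-positive library. Their CD49a-negative levels were 1.40, 1.17 and 16.6 CPM. GHRL, ZNF804B and SGCZ stood at 15.7, 8.42 and 28.4 CPM without it, against 4.44, 0.701 and 4.44 CPM.

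Among genes lower in the CD49a-positive than in the CD49a-negative library, VIM and DPP4 rested on more cells, with 13.6% and 24.3% of the UMIs of the CD49a-positive library in 1 cell. VIM, the vimentin gene, stood at 253 CPM (229 to 278) against 743 CPM (717 to 769), a log2 ratio of -1.52 that was -1.13 in ONECUT3-zero cells. DPP4 stood at 41.4 CPM (32.3 to 52.4) against 153 CPM (141 to 165), a log2 ratio of -1.66 that was -0.43 in ONECUT3-zero cells. SST (log2 -2.97), FXYD3 (log2 -2.02), ID1 (log2 -1.67) and GCG (log2 -1.63) were the others of the 6 lowest. For GCG a single cell held 46.8% of the UMIs of the CD49a-positive library. With 1 library a group none of these differences has a replicate.

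Against the unsorted library, 36 of 4570 genes (0.788%) were at least 2-fold higher and 13 (0.284%) lower in the CD49a-positive library, and 5 of 4472 (0.112%) higher and 23 (0.514%) lower in the CD49a-negative library. IAPP, encoding the beta cell peptide amylin, was 160 CPM (141 to 180) in the CD49a-positive, 211 CPM (197 to 225) in the CD49a-negative and 1391 CPM in the unsorted library, where 1 cell held 35.0% of its UMIs. In the CD49a-negative library 1 cell held 66.3%, and without those cells the levels were 71.3 CPM in the CD49a-negative and 921 CPM in the unsorted library. NPW was 193 CPM (173 to 215), 521 CPM (500 to 543) and 196 CPM (180 to 213) in the same order, and ONECUT3-zero cells showed a like order with 117, 348 and 91.5 CPM. ID1, a target of BMP signalling, was 16.6 CPM (11.0 to 24.0), 74.5 CPM (66.5 to 83.1) and 16.5 CPM (12 to 22.1), highest in the CD49a-negative library. ONECUT2 differed little, with 386 CPM (357 to 417), 396 CPM (377 to 415) and 441 CPM (416 to 467).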

How the data were processed

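Single-cell RNA counts were measured in 3 libraries, 1 per group. The authors deposited raw UMI counts of 36601 genes in each barcode, made with Cell Ranger 7.1.0 on GRCh38 per the submitters' processing notes, with no normalization in the values. Cells were kept and classed as the report states, with Python 3.11.15, pandas 2.3.3 and scipy 1.17.1. Counts were summed by library and class and tested with edgeR 4.0.16 in R 4.3.3 (TMM, filterByExpr, glmQLFit and glmQLFTest, adjusted p under 0.05). The library was the block because both classes of a pair come from the same library. Positions are from the GENCODE annotation of GRCh38, and clusters from scanpy 1.11.5 with leidenalg 0.10.2. The members and gene lists were chosen with earlier results of these data known.

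Named genes were the 12 highest and 12 lowest log2 fold changes among called genes with at least 50 CPM in the higher class and 1 direction in all 3 libraries, the 6 highest and lowest ratios between libraries, and per list the 3 highest levels and 3 largest changes. Other list members were named after their values were seen. Always named were ONECUT1, ONECUT2, ONECUT3, GC, SERPINA1, ITGA1, INS, GCG and TPH1. On simulated counts the test against ONECUT3-zero cells recovered 76% of 100 genes changed 2-fold and 93% of 100 changed 4-fold among 17115 genes, with 0.041% of unchanged genes called. The test against GCG-rich cells recovered 61% and 93% among 15473 genes. The simulation set the same spread between sums for every gene and did not model transcripts held mostly by a single cell. Its shares therefore do not give the error rate in these data. Depth was 88397368 to 127119509 UMIs a library. Doublets were not removed. The alternatives were DESeq2 1.42.0, other size factors, no filter on low counts, no block, at least 3 ONECUT3 UMIs, thinning to 10000 UMIs, cells of 20000 to 80000 UMIs, no deepest 5% of cells and leaving out each library. The comparisons in INS-rich, TPH1-rich and single-hormone cells were added after the data were seen. A few members of the gene lists enter the counts but are not reported by name here.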

Additional observations from a re-analysis of the deposited data

Results flagged for a closer look

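Barcodes that failed the filters on genes or mitochondrial share also held ONECUT3 UMIs and are used in no comparison. At least 2 ONECUT3 UMIs were found in 7 of 2118 such barcodes of the CD49a-positive library (0.331%, exact binomial 95% interval 0.133% to 0.680%), in 5 of 590 of the CD49a-negative library (0.847%, 0.276% to 1.97%) and in 10 of 555 of the unsorted library (1.80%, 0.867% to 3.29%). A count of 0 would allow shares of up to 0.142%, 0.508% and 0.541% in the same order. These limits lie inside the intervals of both sorted libraries and below that of the unsorted library. Median depths of these barcodes were 781, 2532 and 2805 UMIs.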

How the results depend on the processing

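The shares of ONECUT3-positive cells moved with depth and denominator: at 10000 UMIs a cell they were 0.727%, 1.47% and 0.915% in the CD49a-positive, CD49a-negative and unsorted libraries, with at least 3 ONECUT3 UMIs 1.04%, 3.44% and 1.95%, and among cells under both limits 5.96%, 9.38% and 7.12%. Against ONECUT3-zero cells (612 higher, 584 lower), the pairing mattered: without the library block 100 were higher and 30 lower. Thinning gave 384 and 360, DESeq2 357 lower and no filter on low counts 1252 lower. Cells led by GCG alone, with 44 ONECUT3-positive cells, gave 102 higher and 61 lower. Cells led by INS alone, with 122, gave 722 and 706. Leaving out 1 library gave 362 to 615 higher and 354 to 567 lower. Against GCG-rich cells (1312 and 1003), the fit without the block gave 709 and 358, thinning 819 and 657, DESeq2 532 lower, no filter 1897 lower, and leaving out 1 library 642 to 1391 higher and 348 to 938 lower. In INS-rich cells leaving out 1 library gave 76 to 460 higher and 55 to 568 lower, and DESeq2 289 lower. In TPH1-rich cells it gave 275 to 839 higher and 481 to 1061 lower, and DESeq2 331 higher and 415 lower among 4359 genes with an adjusted p, against 14435 tested by edgeR. Genes past 2-fold between libraries numbered 173 for CD49a-positive against CD49a-negative (61 with 50 CPM added, 102 with at least 3 ONECUT3 UMIs), 49 for CD49a-positive against unsorted (16 with 50 CPM, 74 with 1 CPM) and 28 for CD49a-negative against unsorted (5 with 50 CPM). The causes of these shifts were not tested. Of the 24 genes named against ONECUT3-zero cells, 9 lost their call without the block (CHSY3, TRPC7, CADM2, RIMS1, AC112770.1, GCG, HS3ST5, SST and LPAR1), LPAR1 lost it with DESeq2 and SST without the unsorted library. In the other settings run on them (size factors, no filter, at least 3 ONECUT3 UMIs, thinning, 20000 to 80000 UMIs, no deepest 5%, and without either sorted library) all 24 kept their call. No direction reversed. The summed UMIs of ONECUT3-positive cells were lowest in the CD49a-positive library, at 1689040 from 36 cells, so its levels carry the most relative counting error. The median depth of a ONECUT3-positive cell was highest there, at 42629 UMIs against 36199 in the CD49a-negative and 37152 in the unsorted library.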
